A study of Mus musculus with 8 samples.

Results

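The nucleotidase genes Entpd1 to Entpd8 and Nt5e were followed in whole retinas of aged mice. A probe of the array belonged to this family when its accession led to 1 of these 9 genes in the RefSeq gene table of GRCm38.p6, which gave 15 of the 56605 probes. The family was selected on the measured signal of Entpd4, whose difference between genotypes was known when the members were put together. The Entpd4 values below are therefore a description given without p-values, and nothing is read from calls that include them. The study set 4 arrays labelled Mrp4-null, from mice homozygous for a knockout of the transporter gene Abcc4 (Mrp4), against 4 wild-type arrays. All samples were retinal RNA from mice aged 46 to 55 weeks by the labels, and the knockout line had a C57BL/6J background by the study's methods. The knockout was not restricted to a cell type by any label, and no treatment was given for either genotype. Whether a sample held tissue of 1 mouse or of several was not clear from the sources used here, so p-values measure only the spread between these samples, which may be partly technical.

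Extracellular ATP and ADP are signals between retinal neurons, glia and vessels, and they act on P2X and P2Y receptors. Entpd1, Entpd2, Entpd3 and Entpd8 encode enzymes of the cell surface that remove the end phosphates of these nucleotides, and Nt5e encodes the surface enzyme CD73, which turns the resulting AMP into adenosine and is used as a surface marker of mouse rods. Entpd4, Entpd5, Entpd6 and Entpd7 act mainly inside the cell. Entpd4 encodes a UDP-hydrolyzing enzyme of the Golgi and of lysosomal or autophagic membranes, and Entpd5 a UDP-hydrolyzing enzyme of the endoplasmic reticulum that serves glycoprotein folding. The name ectonucleotidase therefore describes only some of the members.

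The difference in this family lay in Entpd4. All 3 of its probes had a lower mean on the arrays labelled Mrp4-null, by 1.73- to 2.07-fold. For the other members with a usable signal, namely Entpd1, Entpd2, Entpd3, Entpd5, Entpd6 and Nt5e, the differences of 8 probes lay between -0.27 and 0.05 on the log2 scale and none passed the test. Entpd7 and Entpd8 had no probe with a usable signal.

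Signals are processed intensities of the scanner software, taken to log2 and normalized between arrays by the quantile method, and they are compared only within a probe. Probes had to be well above background throughout 1 genotype or the other (on each array that measured them), and 37085 met this, 11 of them from this family (7 genes). Such a retained probe was called changed when limma gave a fold change of at least 1.5 and a Benjamini-Hochberg adjusted p under 0.05 over all retained probes. Between 66.0% and 69.9% of all probes were well above background on single arrays, and no spot was saturated. The 75th percentile of the processed signal ran from 497 to 786, lowest on Mrp4-null replicate 2 (497) and wild-type replicate 3 (514). The 8 arrays shared 1 slide and each genotype may lie in a row of its own, in which case row and genotype cannot be told apart. The lists of retinal cell markers were measured on every array, with 9 of 9 photoreceptor genes, 5 of 5 bipolar cell genes and 6 of 6 Müller glia genes well above background.

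Abcc4 itself went against the label. Its probe A_52_P630867 read 10.84, 10.71, 10.64 and 10.80 on arrays labelled Mrp4-null and 6.62, 7.13, 6.54 and 7.02 on wild-type arrays (normalized log2 signal). The difference was 3.92 on the log2 scale (standard error 0.14, limma adjusted p = 1.36e-05), higher under the knockout label. Where this probe lies relative to the deleted part of the gene was not known here, and every direction below is that of the libraries as labelled.

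The upstream sequence of 2 genes is shown first. Entpd4b, the near copy of Entpd4 on the same chromosome, is given because the study's own gene list assigns to it a pair of the probes described below, and Nt5e because it stands for a member whose probe did not pass the test. Each sequence holds the 250 bases before the RefSeq start in GRCm38.p6, 5′ to 3′, on the plus strand, at chr14:69555151-69555400 for Entpd4b and chr9:88327359-88327608 for Nt5e, and capitals mark motif matches on either strand (CCAAT or ATTGG, and the GC box GGGCGG or CCGCCC, which overlap in runs).
Entpd4b: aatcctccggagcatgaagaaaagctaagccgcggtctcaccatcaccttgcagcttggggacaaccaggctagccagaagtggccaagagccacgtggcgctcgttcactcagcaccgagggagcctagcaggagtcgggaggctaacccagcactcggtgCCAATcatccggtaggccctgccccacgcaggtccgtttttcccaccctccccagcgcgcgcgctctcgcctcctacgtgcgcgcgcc
Nt5e: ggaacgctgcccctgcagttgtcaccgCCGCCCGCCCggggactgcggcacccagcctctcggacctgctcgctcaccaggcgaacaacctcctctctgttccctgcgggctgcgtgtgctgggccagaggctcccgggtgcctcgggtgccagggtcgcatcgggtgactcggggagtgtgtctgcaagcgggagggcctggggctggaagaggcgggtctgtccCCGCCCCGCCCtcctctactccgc
The Entpd4b window held 64.4% G and C with 21 CpG dinucleotides and 1 CCAAT match, and the Nt5e window held 72% with 21 CpG dinucleotides and 4 overlapping or adjoining GC box matches. Over all 32851 windows of this length, the median was 52.4% and 6 CpG dinucleotides, with CCAAT in 33.8% and the GC box in 32.7%. The TATA box TATAAA, found in 12.4% of all windows, and GGATTA, found in 6.25%, matched in none of the windows of the family, in which Entpd4 is not included because no window of it was used here. Among the other members the share of G and C ran from 47.2% in 1 of the Entpd1 windows to 66.4% in Entpd7. Entpd8 had the fewest CpG dinucleotides, 3 in its window.

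Entpd4 was measured by 3 probes that carry the same RefSeq accession. Probe A_51_P302222 read 9.58, 9.43, 9.58 and 9.54 on arrays labelled Mrp4-null 1 to 4 and 10.67, 10.53, 10.51 and 10.39 on wild-type arrays 1 to 4 (normalized log2 signal). Every array labelled Mrp4-null lay below every wild-type array. The means were 9.53 ± 0.07 and 10.52 ± 0.11 (SD, n = 4 each), a log2 difference of -0.99 (standard error 0.08), or 1.99-fold lower.

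The brightest Entpd4 probe, A_55_P1992505, read 12.29, 12.44, 12.34 and 12.19 on arrays labelled Mrp4-null and 13.22, 13.12, 13.17 and 12.93 on wild-type arrays. The genotypes were again apart, with means of 12.32 ± 0.10 and 13.11 ± 0.13 (SD, n = 4 each). The log2 difference was -0.79 (standard error 0.09), or 1.73-fold lower. The RefSeq accession in the files gives this probe to Entpd4 and the study's list gives it to Entpd4b, and which of the near-identical transcripts it reads cannot be told apart here.

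The dimmest Entpd4 probe, A_52_P582907, read 6.27, 7.76, 6.88 and 6.58 on arrays labelled Mrp4-null and 7.79, 7.65, 8.29 and 7.94 on wild-type arrays. Here the genotypes overlapped through a single array, Mrp4-null replicate 2, which at 7.76 lay above wild-type replicate 2. The means were 6.87 ± 0.64 and 7.92 ± 0.28 (SD, n = 4 each), a log2 difference of -1.05 (standard error 0.30). This was the largest mean difference of the 3 Entpd4 probes and also the one with the widest spread: its SD within genotypes exceeded that of 95.3% of the retained probes, against 14.2% and 22.9% for the other two. Without Mrp4-null replicate 2 the difference was -1.36.

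The direction was the same before normalization. The processed intensity of A_51_P302222 was 906, 525, 850 and 840 on arrays labelled Mrp4-null and 1728, 1808, 1154 and 1183 on wild-type arrays. That of A_55_P1992505 was 5959, 4237, 5489 and 5289 against 10007, 10795, 7500 and 7037. That of A_52_P582907 was 87.0, 173, 137 and 102 against 240, 232, 253 and 208. In this unit the genotypes were apart for all 3 probes, the dim one included. These intensities are not scaled between arrays, and Mrp4-null replicate 2 had the lowest 75th percentile of signal (497). The separation of the dim probe, which overlapped through that array after normalization, is therefore not read as a clearer result.

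Another probe, A_55_P2717704, has no gene name by the RefSeq table and is no member, but the study's list names it Entpd4b. The list prints probe names cut short, so this probe and A_55_P1992505 were matched to it by the printed part and by the group means. It read 4.15, 4.67, 4.73 and 4.43 on arrays labelled Mrp4-null and 5.86, 5.65, 5.69 and 5.53 on wild-type arrays, with no overlap. The log2 difference was -1.19 (standard error 0.14), or 2.28-fold lower, and with normexp background correction it was -0.40. Because that list holds only genes the study found changed on these arrays, an unchanged Entpd4b probe would not have been named by it, and this value adds no support to those of Entpd4.

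**Figure D1:**
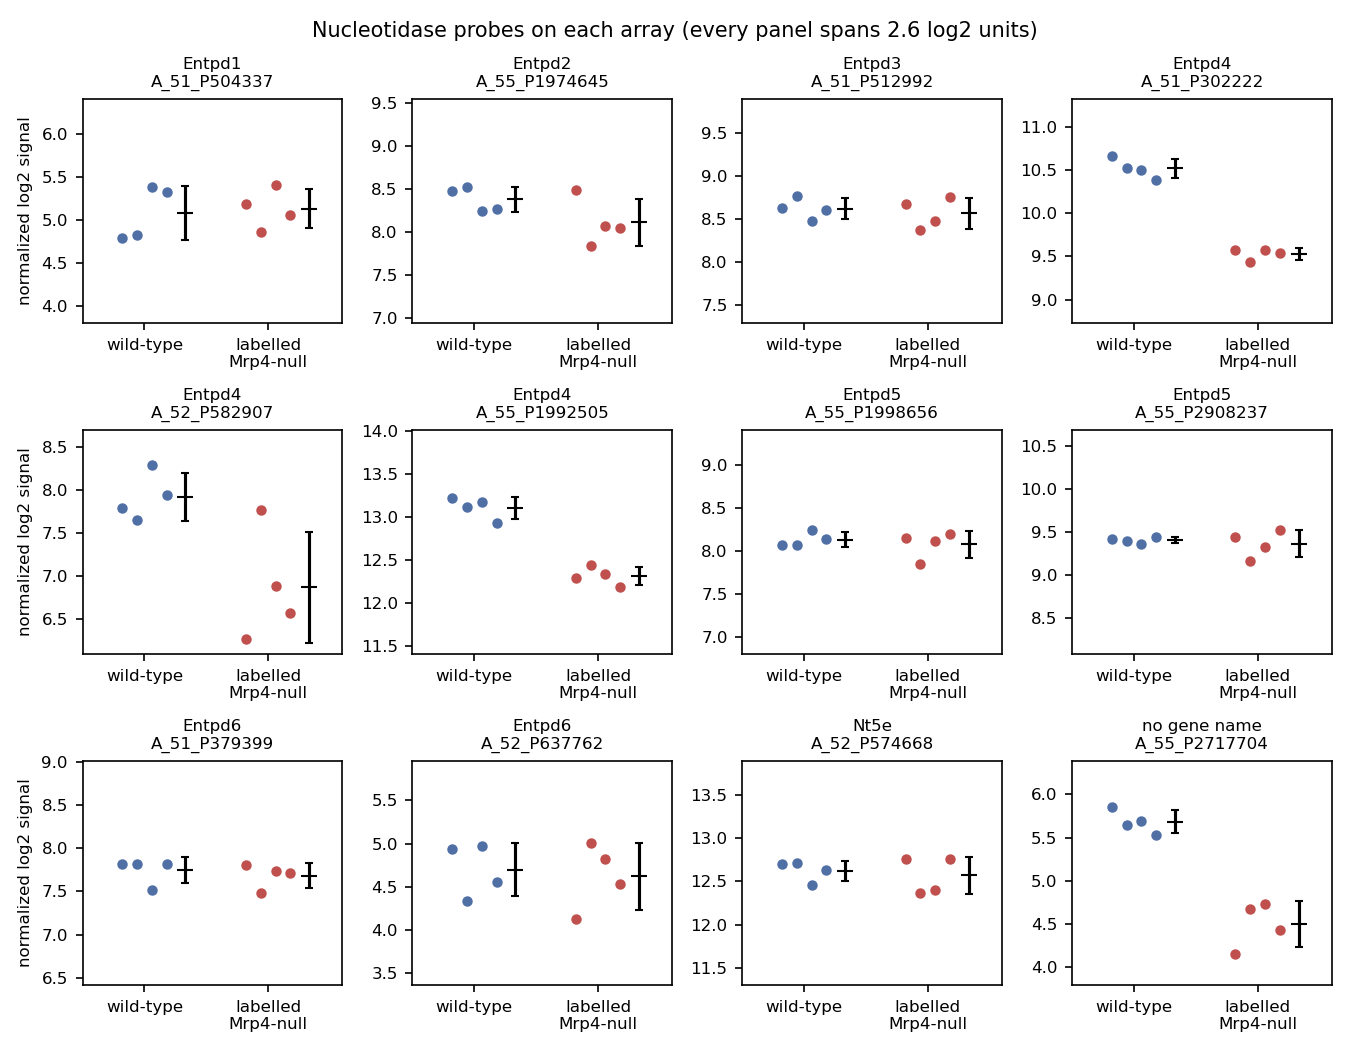
Normalized log2 signal (vertical axes, all of equal span) of the 11 retained nucleotidase probes and of the unnamed probe A_55_P2717704 on each array, with wild-type arrays in blue, arrays labelled Mrp4-null in red, and the mean ± SD of 4 arrays in black. The genotypes are apart for Entpd4 A_51_P302222 and A_55_P1992505 and for the unnamed probe. They overlap by 1 array for Entpd4 A_52_P582907 and for Entpd2, and are mixed for the remaining members.

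Of the 11 retained probes of the family, 2 were called changed, both Entpd4 and both lower. Over all retained probes 0.545% were called, 0.289% called lower. The same 2 probes had genotypes that did not overlap, against 4.79% of all retained probes, or 2.36% counting those lower under the knockout label. The study's local pooled error test, computed on the same values with Benjamini-Hochberg adjustment, called 3 of the 11, all Entpd4, against 0.626% of all retained probes. Since Entpd4 chose the family, nothing is read from these counts. Of the 11 probes, 10 had the lower mean under the knockout label, as did 19746 of all retained probes, and the median log2 difference was -0.06 over the family, -0.06 over the 8 probes other than Entpd4 and -0.01 over all retained probes.

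Among the surface enzymes that act on ATP and ADP, Entpd2, which prefers ATP over ADP, had the largest difference in the main processing. It read 8.48, 7.84, 8.07 and 8.05 on arrays labelled Mrp4-null and 8.48, 8.52, 8.25 and 8.27 on wild-type arrays. Mrp4-null replicate 1 lay among the wild-type arrays and the other 3 lay below them all. The difference was -0.27 (standard error 0.14, 95% interval -0.59 to 0.06, limma adjusted p = 0.911), and Entpd2 was the only member other than Entpd4 whose interval reached past 1.5-fold.

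Entpd1 encodes CD39, the ATP- and ADP-hydrolyzing enzyme known from vascular endothelium and microglia. Its probe A_51_P504337 was dim and read 5.19, 4.86, 5.41 and 5.06 on arrays labelled Mrp4-null and 4.80, 4.82, 5.39 and 5.32 on wild-type arrays. The genotypes covered almost the same range, and the difference was 0.05 (standard error 0.17, 95% interval -0.35 to 0.45, limma adjusted p = 1.00). The list of 9 microglia and macrophage markers averaged 8.69 to 9.41 on arrays labelled Mrp4-null and 8.78 to 8.86 on wild-type arrays, and its highest array, Mrp4-null replicate 3, was also the highest of its genotype for Entpd1. The 9 endothelial markers averaged 7.87 to 8.35 and 8.21 to 8.49, with 6 of 9 lower under the knockout label. The part of either cell type in the Entpd1 values was not tested. A second Entpd1 probe, A_65_P05899, designed to another RefSeq transcript, did not clear the background on any array.

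Entpd3, a surface enzyme known from neurons, read 8.67, 8.37, 8.47 and 8.76 on arrays labelled Mrp4-null and 8.62, 8.77, 8.48 and 8.60 on wild-type arrays. The difference was -0.05 (standard error 0.11, 95% interval -0.30 to 0.20, limma adjusted p = 1.00), and the lowest and the highest array of the 8 were, respectively, Mrp4-null replicate 2 and wild-type replicate 2. Entpd8, the remaining surface enzyme, known from liver and intestine, did not clear the background on any array with either of its probes.

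Nt5e, which makes adenosine from AMP, was measured by 1 bright probe, A_52_P574668. It read 12.76, 12.36, 12.40 and 12.76 on arrays labelled Mrp4-null and 12.70, 12.71, 12.46 and 12.63 on wild-type arrays. The wild-type arrays fell inside the range of the other genotype, and the difference was -0.06 (standard error 0.12, 95% interval -0.33 to 0.22, limma adjusted p = 1.00). The 9 photoreceptor markers, listed here because rods carry this enzyme, averaged 16.48 to 16.58 on arrays labelled Mrp4-null and 16.45 to 16.57 on wild-type arrays. In RNA of a whole retina, fewer cells of a type and less RNA per cell cannot be told apart.

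Entpd5, which like Entpd4 hydrolyzes UDP, had 2 probes. A_55_P1998656 read 8.15, 7.84, 8.11 and 8.19 against 8.07, 8.07, 8.24 and 8.14 on wild-type arrays, and A_55_P2908237 read 9.44, 9.16, 9.33 and 9.53 against 9.42, 9.40, 9.36 and 9.45. In both probes Mrp4-null replicate 2 was the lowest of all arrays and Mrp4-null replicate 4 the highest of its genotype. The differences were -0.06 (95% interval -0.28 to 0.17) and -0.04 (95% interval -0.25 to 0.17), each with a limma adjusted p of 1.00.

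Entpd6, a nucleotidase of the Golgi that can also be secreted, had 2 probes as well. A_51_P379399 read 7.81, 7.48, 7.74 and 7.72 against 7.82, 7.82, 7.52 and 7.82 on wild-type arrays, a difference of -0.06 (95% interval -0.31 to 0.19). The dim probe A_52_P637762 read 4.12, 5.01, 4.82 and 4.54 against 4.93, 4.33, 4.97 and 4.55, a difference of -0.08 (95% interval -0.57 to 0.41). Both had a limma adjusted p of 1.00, and the dim probe ordered the arrays differently from the bright one. Entpd7, an enzyme of intracellular vesicles, was well above background on Mrp4-null replicates 2 and 3 and wild-type replicate 3 only, with processed intensities of 8.64 to 18.6 over all arrays, and was not retained.

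The order of arrays within a genotype was not the same for all probes. Mrp4-null replicate 2 was the lowest array of its genotype for 7 of the 8 retained probes other than Entpd4, and wild-type replicate 3 was the lowest of its genotype for 5 of 8. Mrp4-null replicate 2 was instead the highest of its genotype for the remaining one, Entpd6 A_52_P637762, and for Entpd4 A_52_P582907 and A_55_P1992505. Mrp4-null replicate 2 and wild-type replicate 3 had the lowest 75th percentiles before normalization, and the part of that signal level in the values was not tested. Without both arrays, an alternative added after the data had been seen, the Entpd1 difference was 0.23 in place of 0.05, that of Entpd2 -0.22 and that of Nt5e -0.04, while Entpd4 A_51_P302222, A_52_P582907 and A_55_P1992505 stood at -0.97, -1.24 and -0.81, and none of the 8 other probes was called.

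**Figure D2:**
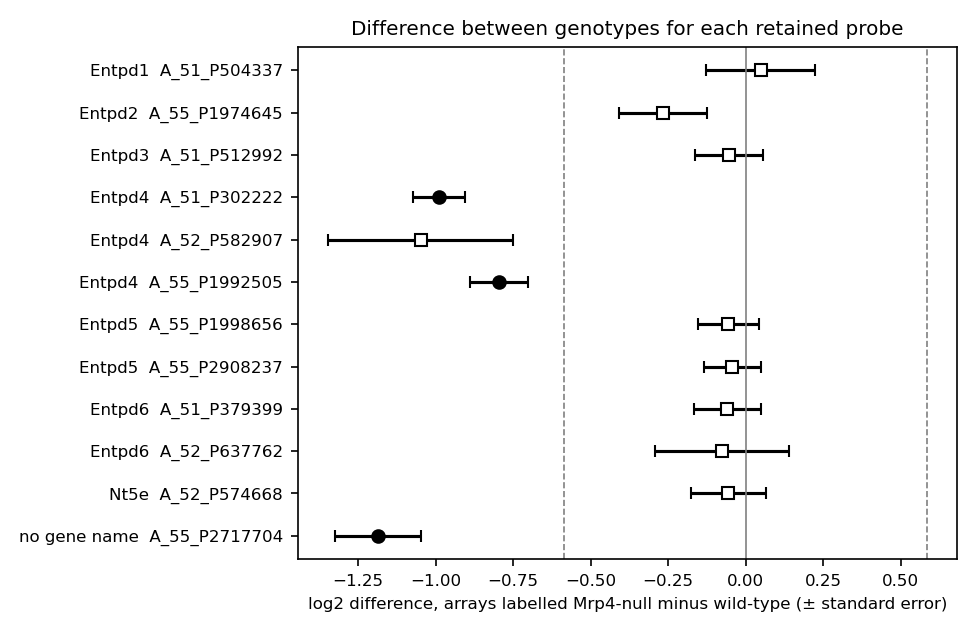
Log2 difference between arrays labelled Mrp4-null and wild-type arrays (horizontal axis, bars are the standard error of limma, n = 4 arrays each) for the 11 retained probes and the unnamed probe; filled circles were called changed, open squares were not, and dashed lines mark a fold change of 1.5. The 3 Entpd4 probes and the unnamed probe lie between -1.19 and -0.79, and all other members lie between -0.27 and 0.05.

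The marker list of the lens lay lower under the knockout label, and the number of its genes called differed between tests. All 13 lens genes of the list had a lower mean under the knockout label, with a median log2 difference of -1.40, and limma called none, while 4 had an unadjusted p under 0.05, as had 6.46% of all retained probes. The local pooled error test with the same thresholds called 11 of the 13, all lower, against 0.626% of all retained probes. The list averaged 6.49, 6.16, 7.50 and 8.47 on arrays labelled Mrp4-null and 8.71, 9.69, 7.33 and 8.16 on wild-type arrays. Mrp4-null replicate 4 lay above wild-type replicates 3 and 4 in this average. The part of lens tissue in the Entpd4 values was not tested. Of the 9 endothelial genes 6 had a lower mean under the knockout label, with a median of -0.22, and of the 5 bipolar cell genes all 5 had a higher mean, with a median of 0.20. Both astrocyte genes had a higher mean, with a median of 0.37. Neither limma nor the local pooled error test called any of these, and by limma 3 endothelial genes, 1 bipolar cell gene and 0 astrocyte genes had an unadjusted p under 0.05. The pigment epithelium genes averaged 7.20 to 7.73 and 7.08 to 7.71 in the genotypes.

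Entpd4 lies on chromosome 14, as Abcc4 does. The 5 measured genes on either side in the gene order of GRCm38.p6 were read as well. Position was not used to choose the family, but these neighbors were chosen with earlier results of these data known. On one side, Slc25a37, which encodes the mitochondrial iron importer mitoferrin, fell with both of its probes. The first fell from 11.44 ± 0.18 to 10.38 ± 0.16 (SD, n = 4 each, difference -1.06, limma adjusted p = 0.00549). The second fell from 7.99 ± 0.32 to 5.05 ± 0.46 (difference -2.95, limma adjusted p = 0.000846), and its difference was -1.76 with normexp. Gm31896, whose annotated span lies within that of Slc25a37, was well above background on every wild-type array and on none of the arrays labelled Mrp4-null. In the main processing it was at least 3.78-fold lower there. With normexp its log2 difference was -0.64, so this bound holds for the main processing only. Gm31896 passed the filter only through the wild-type arrays, so its call is not counted below. Gm16677, the next neighbor of Entpd4, differed by -0.04, and Stc1 and 1700092C10Rik by -0.24 and -0.09, all with a limma adjusted p of 1.00.

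On the other side, Gm16867, whose annotated span overlaps that of Entpd4, read 3.43, 4.50, 4.17 and 4.32 on arrays labelled Mrp4-null and 5.55, 4.87, 5.86 and 5.17 on wild-type arrays. Its genotypes did not overlap, but the difference of -1.26 (standard error 0.27) had a limma adjusted p of 0.145 and was not called. Under normexp the difference was -0.43. Only 3 of the 4 arrays labelled Mrp4-null cleared the background for Gm16867, against all 4 of the other genotype. Its place in the filter thus rested on the genotype with the higher signal, and nothing is read from its lack of overlap. Loxl2, a lysyl oxidase, differed by -0.38 and -0.16 in its 2 probes (limma adjusted p = 0.590 and 1.00). R3hcc1 differed by 0.24 (limma adjusted p = 0.660) and Chmp7, a membrane remodelling factor, by 0.04 (limma adjusted p = 1.00). The genotypes did not overlap either for the first Loxl2 probe, lower under the knockout label, and for R3hcc1, higher under it. The transcript 4930480K23Rik fell from 9.06 ± 0.43 to 5.61 ± 0.57 (SD, n = 4 each), a difference of -3.44 (limma adjusted p = 0.00140), or -2.37 with normexp. Apart from Gm31896, limma called 2 neighbors, Slc25a37 and 4930480K23Rik, where 0.652% of all genes with a retained probe were called. The pair of genes next to Entpd4 were not called. The study lists both called neighbors among its most downregulated probes on these same arrays, so these calls are no independent result. Every probe of Slc25a37 and 4930480K23Rik had a larger difference than the brightest Entpd4 probe. With overlapping annotations, probes of neighboring genes may share transcripts, which was not tested.

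**Figure D3:**
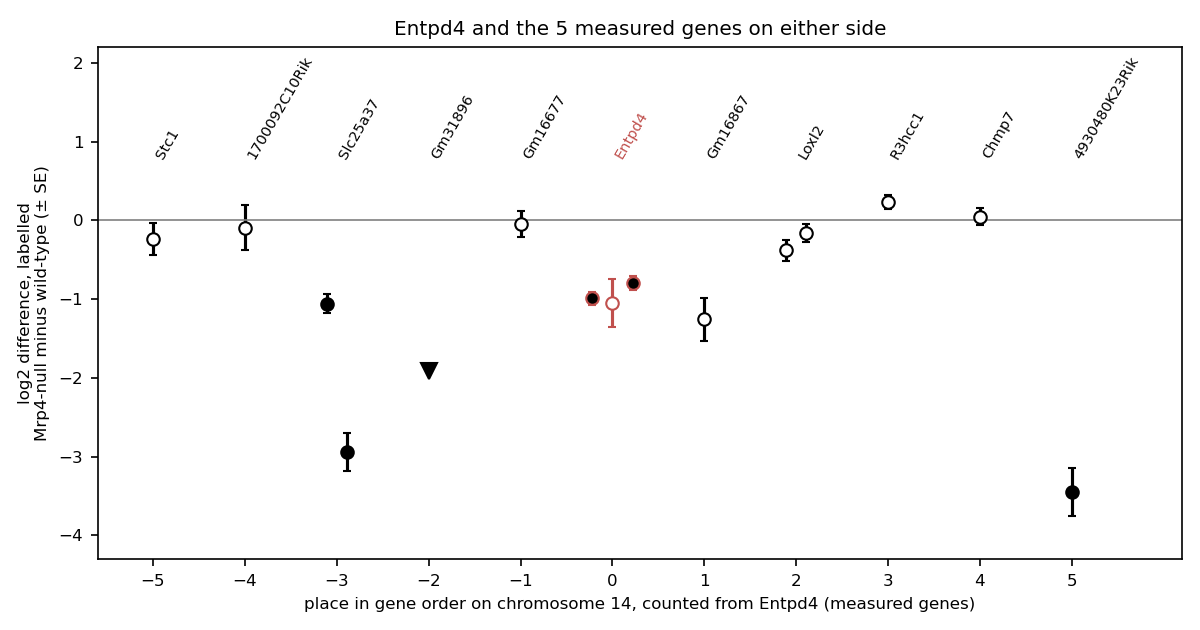
Log2 difference between arrays labelled Mrp4-null and wild-type arrays (vertical axis, bars are the standard error, n = 4 arrays each) for every retained probe of Entpd4 (red outline) and of the 5 measured genes on either side, by place in the gene order (horizontal axis). Filled points were called changed and open points were not. The triangle is the upper limit of the main processing for Gm31896, which did not clear the background under the knockout label. Slc25a37 and 4930480K23Rik fell, and Gm16677, Chmp7 and R3hcc1 lie at -0.04, 0.04 and 0.24.

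The profile of the brightest Entpd4 probe over the 8 arrays was set against all 37075 retained probes without a missing value, by the Euclidean distance of mean-centered log2 signals. The nearest named genes were Pdlim2 on chromosome 14 (distance 0.229), Kifc3 on chromosome 8 (0.276), Atp8a1 on chromosome 5 (0.304), Zfp330 on chromosome 8 (0.321) and Hnrnpr on chromosome 4 (0.323), where the median probe lay at 1.26. Their differences between genotypes ran from -0.95 for Zfp330 to -0.64 for Kifc3, on either side of the -0.79 of Entpd4. The distance takes in the genotype difference, so the nearest genes have similar differences by construction, and nothing is read from this. Entpd4 A_51_P302222 was in place 15 by distance (0.401), the unnamed probe in place 166 (0.685) and Entpd4 A_52_P582907 in place 10436 (1.16). A_51_P302222 thus followed the brightest Entpd4 probe more closely over the arrays than A_52_P582907 did.

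The genes that act before and after these enzymes were read from lists of nucleotide signalling and handling. Of 74 listed genes 59 had a retained probe, and 1 of them, Uggt2, had a called probe, where 0.652% of all genes with a retained probe had one. By the brightest probe of each gene, 32 had a lower and 27 a higher mean under the knockout label, and the median difference was -0.01, against -0.01 over all retained probes.

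Among receptors, no gene was called by limma or by the local pooled error test. The 6 measured P2X receptors, the ATP-gated channels, had 1 lower and 5 higher means with a median difference of 0.10. P2rx2 was the lower one, at 7.33 ± 0.09 against 7.79 ± 0.18 (SD, n = 4 each), a difference of -0.46 (standard error 0.11, limma adjusted p = 0.179) with genotypes that did not overlap. The 6 measured P2Y receptors had a median of 0.03, and the smallest p belonged to P2ry12, the ADP receptor of microglia, at -0.16 (limma adjusted p = 1.00). The 4 adenosine receptors, which sense the product of Nt5e, had a median of -0.05, with Adora2a at -0.23 (limma adjusted p = 0.915).

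The other enzymes and carriers of the pathway gave no call either. The 5 measured genes of nucleotide release had a median of 0.01, with Slc17a9, the vesicular nucleotide transporter, at 0.24 (limma adjusted p = 0.967). The 4 other surface or secretory hydrolases had a median of -0.04, with the phosphatase gene Alpl at -0.06 (limma adjusted p = 1.00). Of the 9 genes of adenosine uptake and metabolism 7 had a lower mean, with a median of -0.09 and Slc29a4, a nucleoside and monoamine transporter, at -0.24 (limma adjusted p = 0.665). The 8 intracellular 5′-nucleotidases had a median of -0.07, with Nt5c2 at -0.08 (limma adjusted p = 1.00).

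The list that holds the surroundings of Entpd4 and Entpd5, with 17 measured genes of nucleotide sugar transport and glycoprotein quality control, had a median of -0.00 and 9 lower against 8 higher means. Its called gene, Uggt2, encodes a glucosyltransferase of glycoprotein quality control, an enzyme class that releases UDP. Its 3 probes did not point the same way. A_55_P2032024 fell from 7.64 ± 0.19 to 6.49 ± 0.15 (SD, n = 4 each, difference -1.15, limma adjusted p = 0.00389), and A_52_P297773 rose from 7.35 ± 0.14 to 7.98 ± 0.11 (difference 0.64, limma adjusted p = 0.0294). A_52_P398099, the brightest, differed by -0.64 (limma adjusted p = 0.0512) and was not called, though it was without wild-type replicate 2 (difference -0.73, limma adjusted p = 0.0224), so no single direction can be given for Uggt2. The call of A_52_P297773 was lost in 7 of the 8 fits that left out 1 array, with differences from 0.57 to 0.68.

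**Figure D4:**
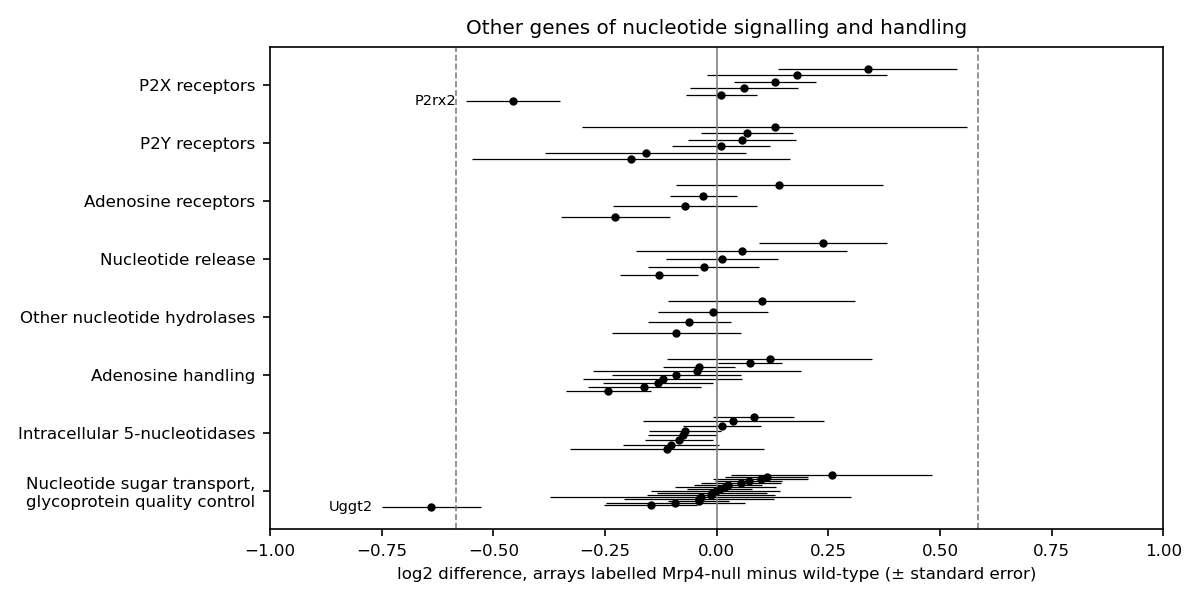
Log2 difference between arrays labelled Mrp4-null and wild-type arrays (horizontal axis, bars are the standard error, n = 4 arrays each) for the brightest retained probe of each of 59 genes, in 8 lists; dashed lines mark a fold change of 1.5. All points lie between the dashed lines except Uggt2 at -0.64, and P2rx2 at -0.46 is the next lowest.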

How the data were processed

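Retinal RNA of both genotypes, 4 samples each, was hybridized to single-dye Cy3 Agilent arrays, 1 array per sample. The authors deposited scanner output of Agilent Feature Extraction 11.0.1.1, in which the processed intensity of each spot was background-subtracted and detrended within the array, but not normalized between arrays. Here control and outlier spots (78 to 143 per array) were left out, and log2 intensities were averaged per probe, filtered and normalized by the quantile method. Genotypes were compared with limma 3.58.1 (lmFit and eBayes, genotype as the only term) in R 4.3.3 with the data.table package (1.17.8). A filtered probe needed at least 3 measured arrays in the detected genotype and 2 in the other. For probes below this level on all arrays of a genotype, the fold is a lower bound, in the main processing, against the dimmest probes well above background there. RefSeq accessions named 32994 probes (58.3%). Arrays carry no counts, so their number limits the precision.

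The members and lists were chosen with earlier results of these data known. Named were all members, Abcc4, Entpd4b, called list genes and the smallest p of each list, 5 measured neighbors on either side of Entpd4, and the 5 nearest profiles. The alternatives were the 75th percentile shift, cyclic loess, normexp with an offset of 50, other filters, outlier spots kept, the deposited series table of intensity, a replicate block, an intensity trend, the local pooled error test, other thresholds, and each array left out. The array design's genome build differs from that of the gene table, which served for names and gene order. The scripts were tested on simulated data.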

Additional observations from a re-analysis of the deposited data

Results flagged for a closer look

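For the brighter Entpd6 probe, A_51_P379399, 1 wild-type array stood apart from its group: wild-type replicate 3 read 7.52, while the other 3 lay at 7.82 after rounding, and the gap took up 0.986 of the range of the group. In all, 26 groups of 4 arrays were screened in this way and 1 was above the critical value of Dixon at 95%, where chance gives about 1 in 20. Leaving that array out moved the Entpd6 difference from -0.06 to -0.14 on the log2 scale, still not called.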

How the results depend on the processing

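The differences of all named probes and the counts of called probes and genes were recomputed under the alternatives, 1 choice at a time, while medians of lists, marker averages and profile distances were not. The Entpd4 differences, given as a description, ran from -1.03 to -0.92 for A_51_P302222, from -0.85 to -0.75 for A_55_P1992505 and from -1.36 to -0.76 for A_52_P582907. The replicate block left 1 member probe called in place of 2, no listed pathway gene (0) in place of 1, and 71 of all probes in place of 202. Of the called neighbors, Slc25a37 A_51_P343429 was not called under the replicate block (limma adjusted p = 0.0771). Samples of the same number correlated at -0.29, -0.69, 0.03 and 0.41 in their deviations and 1 of 8 correlated best with its own number, so the numbers were not taken to pair the samples. All probes called numbered 699 with the fold threshold alone and 117 to 188 with 1 array left out, which left 2 to 3 member probes and 1 pathway gene called. Under normexp the differences were -0.40 for A_55_P2717704, -1.76 for Slc25a37 A_55_P2032445, -2.37 for 4930480K23Rik, -0.64 for Gm31896 and -0.43 for Gm16867. The rising Uggt2 probe A_52_P297773 was called under 6 of 11 other alternatives and the falling probe A_55_P2032024 under 10 of 11. The brightest, A_52_P398099, passed with the intensity trend (limma adjusted p = 0.0479). A_55_P2717704 passed under 7 of 11 and not under the 75th percentile shift, normexp, the replicate block or without both arrays of low signal.

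Signs turned only in differences near 0 that were never called. Entpd6 A_52_P637762 was 0.011 under normexp, and without both arrays of low signal, added after seeing the data, the Entpd5 probes were at 0.060 and 0.0080 and P2ry12 at 0.033. With 1 array left out, Entpd1 ran from -0.045 to 0.15, Entpd3 from -0.12 to 0.013, the Entpd5 probes from -0.094 to 0.022 and from -0.097 to 0.024, the Entpd6 probes from -0.14 to 0.0092 and from -0.23 to 0.089, Nt5e from -0.12 to 0.012, Chmp7 from -0.040 to 0.12, Gm16677 from -0.16 to 0.075, 1700092C10Rik from -0.37 to 0.027, P2ry12 from -0.30 to 0.013 and Alpl from -0.097 to 0.0090, while Entpd2 ran from -0.39 to -0.18 and kept its sign. Abcc4 was higher under the knockout label throughout, from 3.30 to 4.00. No scaling moved the median of all probes by over 0.01. Dim probes, such as those of Entpd7 and Entpd8, limit what can be said of these genes.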
